A study of Mus musculus with 9 samples.

Results

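The RNA of cDC2 and cDC1, the conventional dendritic cells (DC) of the spleen, was compared across the transcriptome in 6 libraries, 3 of each subset, out of 9 in the series. The 3 libraries labelled CD8neg were taken as cDC2 and the 3 labelled CD8pos as cDC1. All came from the spleens of unstimulated C57BL/6J mice aged 6 to 12 weeks, which carried no transgene or deletion, and each library was made from cells sorted from a pool of 15 to 17 mice. The pools hide the spread between single animals. The cDC1 were sorted as CD11c hi CD317 lo CD8+ CD11b- cells and the cDC2 as CD11c hi CD317 lo CD8- CD11b+ cells, after depletion of other cells, among them those carrying CD3, Thy-1, Ly6G/Ly6C or TER-119. Libraries with the same number share a date code in the labels and are called sort 1, 2 and 3. The remaining 3 libraries, from plasmacytoid DC (pDC), entered the fit for its estimate of the spread.

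Conventional DC take up antigen, carry it to T cells and present it on MHC molecules. cDC1 are known for presenting antigen from dead cells on MHC class I to CD8+ T cells and for depending on the transcription factors IRF8 and BATF3. cDC2 are known for priming CD4+ T cells, and splenic cDC2 depend on IRF4 and on signals through NOTCH2. The comparison asks how far these subsets differ at rest, before any stimulus.

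The authors deposited raw read counts on 39179 genes, and 13819 of them held enough counts for a test. Totals over genes ran from 15806597 to 30723523 counts in the 6 libraries, with the lowest totals in sort 3, and 3 counts corresponded to between 0.0956 and 0.203 CPM, the count rescaled to a fixed library total. Levels are given as CPM scaled by edgeR's TMM factors, are not divided by gene length and are therefore not compared between genes. Differences are log2 fold changes of cDC2 over cDC1, so that positive values mean higher in cDC2. A lone number in brackets after a gene is its log2 fold change, and where a call was lost it is the value in the fit that lost it. A gene was called where edgeR's quasi-likelihood test gave a Benjamini-Hochberg adjusted p under 0.05. In bulk RNA, fewer cells of a type and less RNA per cell cannot be told apart. The 3 libraries of a subset are given as biological replicates, and the p-values cover the spread between these pools.

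Of the genes tested, 3370 (24.4%) were called, with 1760 (12.7%) higher in cDC2 and 1610 (11.7%) lower. All but 1 of the called genes differed in the same direction in each of the 3 sorts. The calls rest on these same libraries, so this is no separate support. Called or not, the libraries of the subsets did not overlap for 44.5% of all genes tested. At least a 2-fold difference was seen for 1070 of the higher and 742 of the lower genes, and at least an 8-fold difference for 259 and 162. The median over all genes tested was 0.03 on the log2 scale. Scaling by library size alone raised that median by 0.11 and moved the split to 63.1% higher among the called genes, against 52.2% with TMM factors. The count of called genes was 1207 without sort 1, 1594 without sort 2 and 5356 without sort 3, whose libraries stood apart on the second principal component. Pairs of counts given for a list without sort 1, 2 and 3 come from 3 separate fits, each lacking one sort, with higher members before lower. Each gene list below is given as counts of called members and as the median log2 fold change of its tested members. Counts from the main fit are to be read against 12.7% higher and 11.7% lower, and other counts against all genes in the same fit. Without sort 1 those were 703 higher and 504 lower of 13548 tested, and without sort 2 863 and 731 of 13879. Without sort 3 they were 2637 and 2719 of 14221. The paired fit, with the sort as a block, had 2558 and 2358 of 13819, and library size alone 2204 and 1287. A gene could enter the test through the subset where it is high. With at least 10 counts required in every cDC library, 1622 were higher and 1472 lower of 11589 tested.

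The 4 markers followed the labels. Itgam, which encodes CD11b, stood at 11.5, 7.46 and 15.8 CPM in cDC1 of sorts 1, 2 and 3 and at 236, 248 and 221 CPM in cDC2. Sirpa, the inhibitory receptor that binds CD47, stood at 79.0, 41.4 and 60.2 CPM in cDC1 and 1023, 918 and 953 CPM in cDC2. Every cDC2 library lay far above every cDC1 library for both genes, with log2 fold changes of 4.35 (standard error 0.332, edgeR adjusted p = 1.63e-05) and 4.0 (standard error 0.214, edgeR adjusted p = 2.27e-06). Xcr1, the receptor for the chemokine XCL1, went the other way, with 929, 933 and 947 CPM in cDC1 and 33.5, 64.9 and 50.5 CPM in cDC2. Clec9a, a lectin that binds actin exposed by dead cells, had 597, 634 and 642 CPM in cDC1 and 40.3, 52.3 and 57.8 CPM in cDC2. Neither gene's libraries overlapped between the subsets, and the log2 fold changes were -4.24 (standard error 0.515, edgeR adjusted p = 0.000254) and -3.64 (standard error 0.141, edgeR adjusted p = 6.00e-07). CD8 and CD11b were themselves used for sorting, so Cd8a and Itgam check the sort and are not findings. In GRCm38, Itgam lies at chr7:128062640-128118491 (plus strand), Sirpa at chr2:129592835-129632228 (plus strand), Xcr1 at chr9:123852315-123862029 (minus strand) and Clec9a at chr6:129408862-129424763 (plus strand). Of the 75-base windows of Itgam, 76.2% also occur in another annotated gene, so its count depends on how shared reads were treated.

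**Figure D1:**
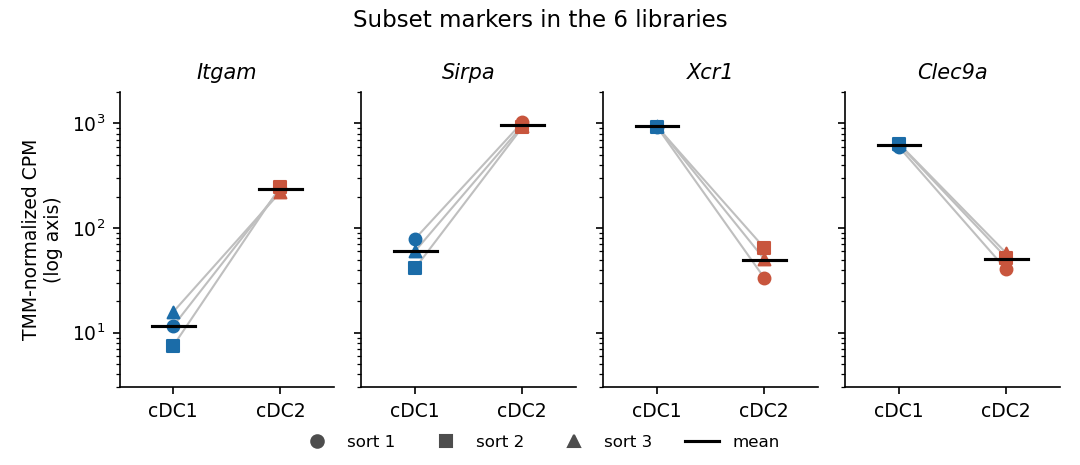
Levels of Itgam, Sirpa, Xcr1 and Clec9a in TMM-normalized CPM (log axis) in the 6 libraries, one panel per gene, with a symbol for each sort, grey lines joining the libraries of a sort and a black bar at the mean. The subsets do not overlap in any panel, and Itgam averages 11.6 ± 4.16 CPM (SD, n = 3) in cDC1 and 235 ± 13.5 CPM (SD, n = 3) in cDC2.

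Lists of identity genes, which include these markers, separated the subsets almost without exception. The cDC1 list held Xcr1, Clec9a and the sorting gene Cd8a, and the cDC2 list held Sirpa and the sorting gene Itgam. All 19 tested genes of the cDC1 identity list were lower in cDC2, with a median of -3.54. They included Cadm1, an adhesion molecule (-4.26), Itgae, the CD103 integrin chain (-4.97), Btla, an inhibitory receptor of the CD28 family (-2.60), Ly75, the uptake receptor DEC-205 (-2.32), and Cd24a (-2.56). Of the 20 genes of the cDC2 list, 18 were higher, with a median of 2.81. They included Clec4a4, which encodes the lectin DCIR2 (5.12), Cd4 (3.34), the adhesion molecule Esam (2.53) and Dtx1, a regulator and target of Notch signaling (5.35). Esam lost its call without sort 1 (2.62). Clec12a, a lectin that recognises crystals from dead cells and was placed on the cDC2 list, was lower in cDC2 at 229.9, 221 and 241 CPM in cDC1 and 72.3, 64.2 and 84.7 CPM in cDC2 (-1.65). Genes of the opposite subset were low but present. The mean in cDC2 was 1.47% of that in cDC1 for Cd8a, 5.30% for Xcr1 and 8.03% for Clec9a, and the mean in cDC1 was 2.44% of that in cDC2 for Dtx1 and 6.24% for Sirpa. Whether a few cells of the other subset contributed to these levels was not tested.

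Markers of other spleen cells were counted in the same libraries. Of 8 markers of red pulp macrophages 4 were higher in cDC2 (1 and 0, 3 and 0, and 3 and 0 higher and lower without sort 1, 2 and 3), and their summed level ran from 163 to 242 CPM in cDC1 and from 479.8 to 663 CPM in cDC2. For 8 monocyte markers, 5 were higher and 1 lower (1 and 0, 3 and 1, and 5 and 1 without sort 1, 2 and 3), with sums of 794 to 984 CPM in cDC1 and 1745 to 2398 CPM in cDC2. The 8 NK cell markers summed to 10.3 to 31.5 CPM in cDC1 and 24.7 to 97.8 CPM in cDC2, highest in sort 3 of both subsets. Of these, 1 was called higher, Ncr1 (6 with the sort as a block in the paired fit). Ncr1 lost its call without sort 2 or without cDC1 replicate 2 alone. The neutrophil markers summed to 5.92 to 28.7 and 109 to 136 CPM, mostly Mmp9 in cDC2, while Ly6g and Cxcr2 held too few counts for a test. Of 6 neutrophil markers tested 1 was called higher, and 4 with the block, S100a8 (1.47, edgeR adjusted p = 0.0331) and S100a9 (1.17, edgeR adjusted p = 0.0311) among these. Sums of B cell markers were 57.1 to 59.9 CPM in cDC1 and 71.5 to 83.5 CPM in cDC2, and of T cell markers 12.7 to 19.2 and 30.3 to 42.0 CPM. Of 5 B cell markers tested 3 were higher in cDC2 (Cd79b, Cr2 and Fcer2a) and 1 lower (Ms4a1, -0.70), with a median of 1.90. The B cell counts were 2 and 0, 2 and 0, and 3 and 1 without sort 1, 2 and 3, and Fcer2a lost its call without sort 1 or 2. Of 6 T cell markers tested 1, Cd5, was higher (2 with the block, Lat being added). Their log2 fold changes ran from 0.89 to 2.36, with a median of 1.31. Cd3g was called higher by DESeq2, on the 6 libraries alone with the block and without cDC2 replicate 1. Cd28 was called higher without sort 3 or without cDC1 replicate 3. The markers Pax5, Ebf1, Bcl11b and Themis held too few counts for a test. Cd3e, which was not called, averaged 0.203 ± 0.263 CPM (SD, n = 3) in cDC1 and 0.403 ± 0.170 CPM in cDC2. pDC markers summed to 131 to 155 CPM in cDC1 and 106 to 121 CPM in cDC2. The part of such cells in the results below was not tested.

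The largest rises in cDC2 were led by genes for surface receptors and adhesion. Cd101, an inhibitory immunoglobulin superfamily receptor, had 0.546, 0.0834 and 0.0677 CPM in cDC1 and 34.4, 34.6 and 31.6 CPM in cDC2. Mmp9, a protease of the extracellular matrix, had 0.765, 0.208 and 1.22 CPM in cDC1 and 65.9, 86.4 and 84.7 CPM in cDC2. Both genes were low in cDC1 and present in every cDC2 library, with log2 fold changes of 6.97 (95% interval 5.39 to 8.56) and 6.84 (5.45 to 8.23). Cd101 lay under the level of 3 counts in cDC1 of sorts 2 and 3, and Mmp9 above that level in each cDC1 library. Fat2, a giant cadherin, held 2, 0 and 0 reads in cDC1 and 184, 117 and 55 in cDC2, and Tarm1, an activating receptor of myeloid cells, held 2, 2 and 0 and 233, 149 and 96. So few cDC1 reads allow no firm fold for this pair. Others among the 15 largest rises were Cd209b, a lectin of the DC-SIGN family (6.27), Cdhr3, a cadherin-related protein (6.27), Ptgfrn, a partner of tetraspanins (6.07), Slc8a2, a sodium-calcium exchanger (6.06), Ryr3, an intracellular calcium channel (5.85), Ncald, a neuronal calcium sensor (5.37), Il1rn (5.58) and Ccr6 (5.53). Scel (6.07), D6Ertd527e (5.69) and Dmrtb1 (5.42) completed the set. Dmrtb1 lost its call without sort 2, at 4.89.

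The largest falls held adhesion and secreted proteins and enzymes of several kinds. Dkk3, a secreted glycoprotein of the Dickkopf family, had 93.7, 104 and 88.6 CPM in cDC1 and 0.669, 1.01 and 1.38 CPM in cDC2. Cd207, the Langerhans cell lectin langerin, had 69.8, 80.5 and 59.2 CPM in cDC1 and 0.988, 2.10 and 0.903 CPM in cDC2. The libraries of the subsets did not overlap, and the log2 fold changes were -6.59 (95% interval -7.72 to -5.45) and -5.69 (-6.79 to -4.59). Gpr116, an adhesion receptor now named Adgrf5, held 257, 265 and 51 reads in cDC1 and 3, 2 and 0 in cDC2, and Pcsk5, a proprotein convertase, held 155, 224 and 52 and 3, 1 and 0. Trabd2b, a Wnt-inactivating metalloprotease (-6.06), Alpl, tissue-nonspecific alkaline phosphatase (-5.38), Gpr33, an orphan chemoattractant-like receptor (-4.89), Cyp8b1, a sterol hydroxylase of bile acid synthesis (-4.67), Ptgis, prostacyclin synthase (-4.65), and Flt1, a receptor for vascular endothelial growth factor (-4.61), were also lower in cDC2. Mab21l3 (-5.60), Leprel1 (-5.10) and Ttc39a (-4.60) stood in the same set, beside Cd8a (-6.08) and Itgae (-4.97). Exons of an opposite-strand gene cover 28.4% of the exon bases of Leprel1.

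**Figure D2:**
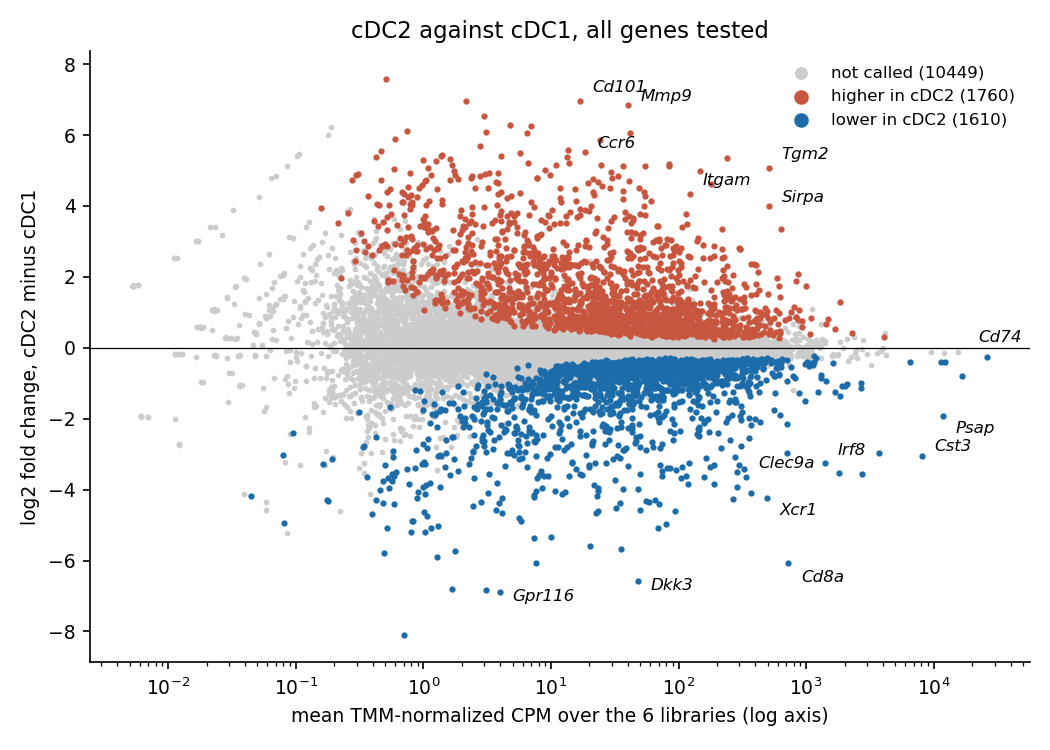
Log2 fold change of cDC2 over cDC1 against the mean level over the 6 libraries (TMM-normalized CPM, log axis) for the genes tested, with called genes coloured by direction and 15 genes of the text named. A further 20 tested genes with no read in the 6 libraries are not drawn. Called genes lie on both sides of 0, 1760 above and 1610 below.

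By difference in CPM rather than by fold, other genes led. CPM is not divided by gene length, so this order favours long and abundant transcripts and serves only to choose genes. Tgm2, the tissue transglutaminase, had 37.6, 20.2 and 29.4 CPM in cDC1 and 959, 904 and 1097 CPM in cDC2 (5.08, edgeR adjusted p = 9.33e-06). Exons on the opposite strand cover 21.8% of its exon bases. S100a4, a calcium-binding protein, had 138, 80.7 and 123 CPM in cDC1 and 1314, 1067 and 1113 CPM in cDC2 (3.35), and 44.1% of its windows occur in another gene. Limd2 (1.98), the malate dehydrogenase Mdh2 (1.76), the semaphorin receptor Plxnc1 (1.75), the leukocyte phosphatase Ptprc, or CD45 (1.29), and the integrin chain Itgax, or CD11c (0.68), were higher in cDC2 too. Among the losses in CPM, Mpeg1, which encodes the pore-forming protein perforin-2, had 6509.8, 6547 and 6783 CPM in cDC1 and 738, 762 and 1023 CPM in cDC2 (-2.98). Psap, the precursor of the saposins, had 19335, 18472 and 18896 CPM in cDC1 and 5004, 4648 and 5174 CPM in cDC2 (-1.94). Plbd1 (-1.13), the actin-sequestering Tmsb4x (-0.79) and Actb (-0.40) were also lower in cDC2. Without sort 1 the calls of Itgax (0.70), Plbd1 (-1.15) and Actb (-0.42) were lost.

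Promoters of the genes with the largest changes were read for short motifs of factors named in DC biology. These genes were chosen by the size of their change in these same libraries, and shared regulation was not tested. RefSeq promoters for GRCm38.p6 were matched for 12 of the 15 largest rises and 10 of the 15 largest falls, and the 250 bases before each start were searched on both strands. The core bound jointly by an ETS factor such as PU.1 and an IRF, spelled GGAANNGAA, was found in 2 of 12 rises and 3 of 10 falls, against 8.01% of the 27025 genes in the table. The promoters that hold it are printed 5′ to 3′ on the gene's strand, with the core in capitals as it reads on that strand (as its reverse complement where it lies on the other). They are Tarm1 at chr7:3502625-3502874 (minus strand), Il1rn at chr2:24345121-24345370 (plus), Gpr33 at chr12:52028064-52028313 (minus), Cd8a at chr6:71373177-71373426 (plus) and Gpr116 at chr17:43360181-43360430 (plus).
Tarm1: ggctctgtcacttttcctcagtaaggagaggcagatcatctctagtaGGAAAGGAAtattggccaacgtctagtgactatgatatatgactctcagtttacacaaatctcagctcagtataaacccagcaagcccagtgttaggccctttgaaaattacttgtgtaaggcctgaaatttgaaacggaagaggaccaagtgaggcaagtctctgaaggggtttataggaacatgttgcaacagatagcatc
Il1rn: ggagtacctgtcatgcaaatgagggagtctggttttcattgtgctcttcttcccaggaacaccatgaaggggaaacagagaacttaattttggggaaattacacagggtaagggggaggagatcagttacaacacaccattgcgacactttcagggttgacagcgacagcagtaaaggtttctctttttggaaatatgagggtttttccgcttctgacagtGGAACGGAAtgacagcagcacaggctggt
Gpr33: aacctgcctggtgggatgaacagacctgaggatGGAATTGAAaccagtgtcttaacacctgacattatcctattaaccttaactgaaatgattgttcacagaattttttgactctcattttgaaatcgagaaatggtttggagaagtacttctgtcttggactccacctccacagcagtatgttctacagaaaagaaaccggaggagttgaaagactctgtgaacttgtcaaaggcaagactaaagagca
Cd8a: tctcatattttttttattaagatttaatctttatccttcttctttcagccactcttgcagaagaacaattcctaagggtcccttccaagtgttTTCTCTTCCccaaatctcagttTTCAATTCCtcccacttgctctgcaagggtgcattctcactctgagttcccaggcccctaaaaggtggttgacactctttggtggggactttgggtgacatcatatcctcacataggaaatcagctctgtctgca
Gpr116: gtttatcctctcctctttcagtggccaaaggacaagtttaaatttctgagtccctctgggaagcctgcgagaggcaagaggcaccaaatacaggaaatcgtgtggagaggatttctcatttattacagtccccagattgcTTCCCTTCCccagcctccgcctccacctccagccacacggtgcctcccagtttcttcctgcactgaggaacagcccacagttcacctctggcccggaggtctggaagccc
The core occurs 2 times in Cd8a and 1 time in each of the others, on both sides of the comparison. The IRF repeat core GAAANNGAA was found in 1 rise (Tarm1) and 0 falls, against 8.18% of genes. The AP-1 site TGACTCA or TGAGTCA was found in 2 rises (Il1rn and Scel) and 1 fall (Cd207), against 5.16% of genes. RBPJ's core TGGGAA was found in 2 rises and 3 falls (24.1% of genes), the KLF core CCACCC in 1 rise and 5 falls (30.6%), and the E-box CACCTG, bound by ZEB factors, in 3 rises and 2 falls (19.4%). One NFIL3 site, TTACGTAA or TTATGTAA, was found upstream of Ccr6 (1.10% of genes), while the PU.1 site GAGGAAGT and the C/EBP palindrome TTGCGCAA were found in none of the 22 promoters (2.79% and 0.185% of genes). Some of these letters overlap, since GGAANNGAA and GAAANNGAA share bases. A match is a run of letters and not a shown binding site.

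Transcription factors showed more rises than falls. Of 63 tested factors of DC development and state, 27 were higher in cDC2 and 8 lower, with a median of 0.58. Without sorts 1, 2 and 3 in turn, higher and lower members numbered 19 and 5, 20 and 5, and 32 and 11. Irf8, the factor on which cDC1 depend, had 2421, 2434 and 2810.0 CPM in cDC1 and 216, 283 and 309 CPM in cDC2, and Irf4, its relative in cDC2, had 18.0, 15.7 and 11.4 CPM in cDC1 and 67.5, 73.8 and 67.0 CPM in cDC2. The subsets did not overlap for either gene, with log2 fold changes of -3.25 (standard error 0.144, edgeR adjusted p = 1.06e-06) and 2.20 (standard error 0.163, edgeR adjusted p = 1.36e-05). Irf8 was still read in every cDC2 library. Tbx21, which encodes T-bet (3.87), Prdm1, which encodes BLIMP-1 (3.08), Zeb2, a zinc-finger repressor (2.71), the NF-kB subunit Relb (1.73), Klf4 (1.68) and Runx3 (1.09) were higher in cDC2. Mycl, a MYC relative of cDC1 (-1.82), the retinoid receptor Rxra (-1.59) and Id2, an inhibitor of E proteins (-1.20), were lower. Id2 lost its call without sort 1 (-1.21).

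Batf3, required for cDC1 development, was called in some fits and not in others. It stood at 95.8, 88.8 and 89.6 CPM in cDC1 and 71.4, 61.6 and 65.1 CPM in cDC2, with a log2 fold change of -0.47 and a 95% interval of -1.04 to 0.10 (edgeR adjusted p = 0.229), and was not called with the block over 9 libraries either (edgeR adjusted p = 0.0545). It was called lower in cDC2 on the 6 libraries alone (-0.47; -0.47 with the block), by limma-voom (-0.47) and without pDC replicate 2 (-0.49). Every cDC1 library lay above every cDC2 library, as was so in one direction or the other for 44.5% of all genes tested, and the interval leaves out any difference as large as that of Irf8. The other regulators that were not called had intervals of -1.53 to 0.44 for Nfil3, -0.58 to 0.02 for Bcl6 and -0.83 to 0.39 for Zbtb46, a factor shared by conventional DC. On the 6 libraries alone with the block, Nfil3 (-0.58), Bcl6 (-0.28) and Zbtb46 (-0.22) were called lower, and without sort 3 so were Nfil3 (-0.70) and Bcl6 (-0.29). Notch2 lay at 0.22 (edgeR adjusted p = 0.230) and was called with the sort as a block (0.22, edgeR adjusted p = 0.0322).

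Toll-like receptors, which sense microbial products, split by member rather than by direction. Of 30 receptors and adaptors, 11 were higher in cDC2 and 6 lower, with a median of 0.11. Higher and lower members came to 5 and 4, 6 and 6, and 13 and 7 without sort 1, 2 and 3. Tlr7, an endosomal sensor of single-stranded RNA, had 7.5, 4.0 and 8.06 CPM in cDC1 and 71.1, 70.3 and 105 CPM in cDC2, and Tlr3, the sensor of double-stranded RNA, had 288, 332 and 344 CPM in cDC1 and 21.9, 36.4 and 35.1 CPM in cDC2. Tlr11, a sensor of profilin and flagellin, had 531, 534 and 547 CPM in cDC1 and 42.6, 57.4 and 62.8 CPM in cDC2. Tlr7 was higher in every cDC2 library (3.66, edgeR adjusted p = 2.42e-05), and Tlr3 and Tlr11 were higher in every cDC1 library (-3.37 and -3.31, edgeR adjusted p = 9.94e-05 and 0.000308). Tlr12, the partner of Tlr11, was lower in cDC2 as well (-3.36). The surface receptors Tlr1 (3.43), Tlr5, the flagellin receptor (2.04), and Tlr6 (1.27) were higher in cDC2. Tlr8 was higher at low levels, 1.68, 0.250 and 1.15 CPM in cDC1 and 9.05, 6.40 and 14 CPM in cDC2 (3.25). The call of Tlr8 was lost without cDC1 replicate 2 (2.77), cDC1 replicate 3 (3.29) or cDC2 replicate 3 (2.88), and that of Tlr6 without cDC1 replicate 2 (1.27) or 3 (1.10). Tlr2, Tlr4, Tlr9 and Tlr13 were not called, with 95% intervals of -0.51 to 0.24, -0.68 to 0.64, -0.05 to 0.64 and -0.81 to 0.93. The intervals of Tlr2, Tlr4, Tlr9 and Tlr13 all leave out a 2-fold difference, and Tlr9 was called on the 6 libraries alone with the block (0.29).

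**Figure D3:**
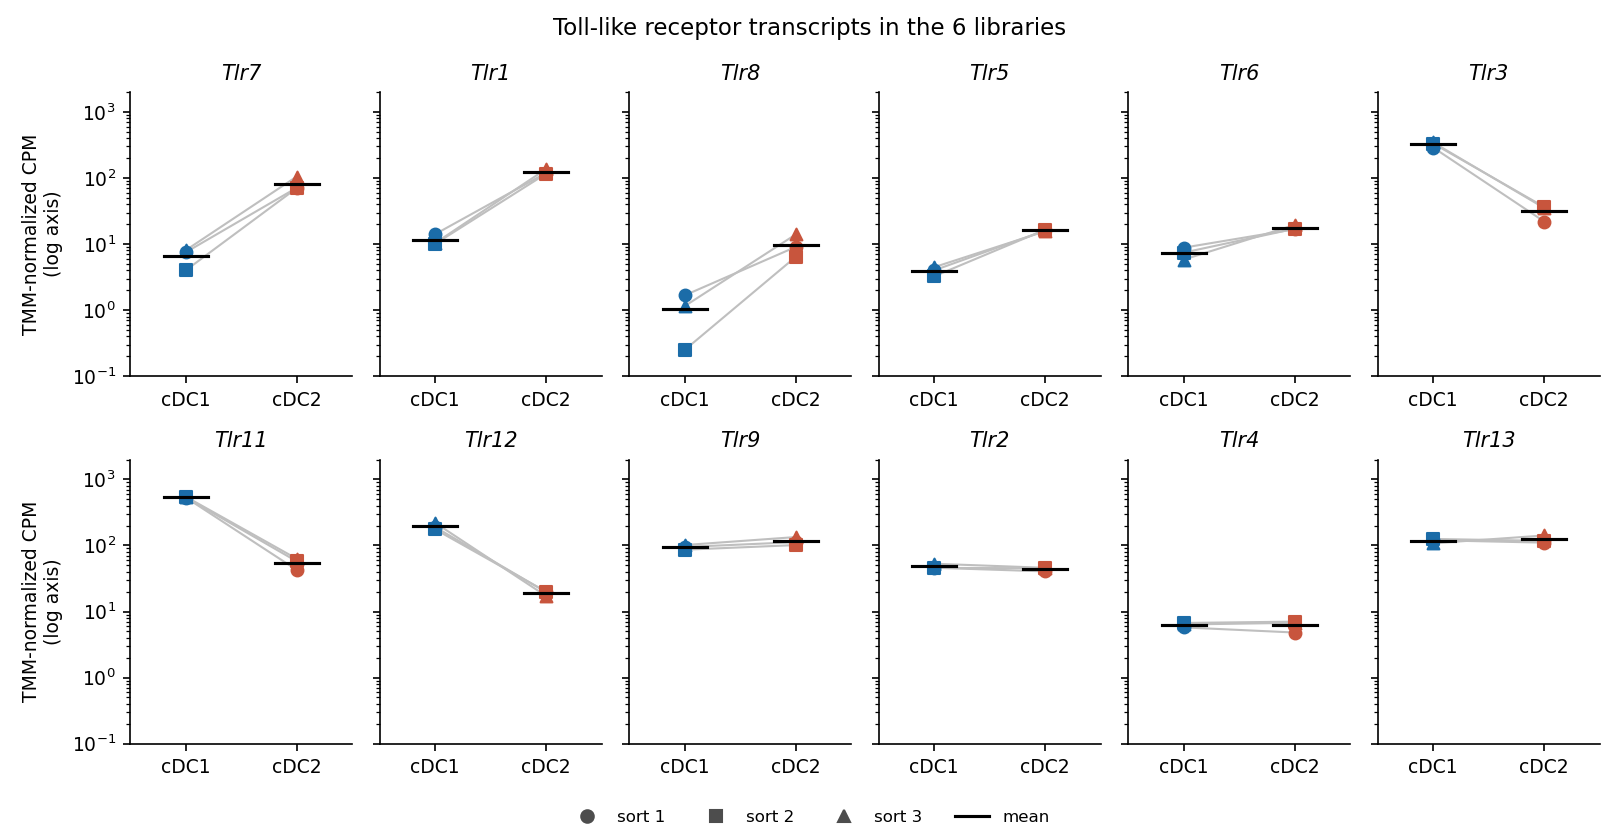
Levels of 12 Toll-like receptor genes in TMM-normalized CPM (log axis) in the 6 libraries, with a symbol for each sort, grey lines joining the libraries of a sort and a black bar at the mean. Tlr3, Tlr11 and Tlr12 sit higher in cDC1, Tlr1, Tlr5, Tlr7 and Tlr8 sit higher in cDC2, and the libraries of Tlr2, Tlr4, Tlr9 and Tlr13 overlap.

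Cytosolic sensors leaned to cDC2. Of 25 NOD-like receptors, inflammasome parts and RNA helicases, 12 were higher and 0 lower, with a median of 0.75. Leaving out sort 1, 2 and 3 gave 6 and 0, 7 and 0, and 15 and 1 higher and lower. Ddx58, the RNA helicase RIG-I, which is itself interferon-stimulated, had 5.90, 3.63 and 2.57 CPM in cDC1 and 80.3, 91.8 and 109.7 CPM in cDC2 (4.51). Nlrp10, a NOD-like receptor without a leucine-rich repeat domain, had 1.82, 1.21 and 0.745 CPM in cDC1 and 17.5, 15.1 and 14.2 CPM in cDC2 (3.59). Neither gene's libraries overlapped. Nlrc4 was called at 2.29, but the call was lost when any one of the 6 libraries was left out, with values between 2.03 without cDC2 replicate 2 and 2.42 without cDC2 replicate 3. Of 137 interferon-stimulated genes, 58 were higher and 16 lower, and they are not followed further.

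Receptors of the C-type lectin, Fc and paired families were mostly on the cDC2 side among called genes. Of 36 C-type lectins, 22 were higher in cDC2 and 7 lower, with a median of 2.13. Clec4a1 had 5.64, 1.63 and 6.57 CPM in cDC1 and 165, 148 and 182 CPM in cDC2 (5.18) and Clec4a4 had 5.86, 3.00 and 5.14 CPM in cDC1 and 152, 147 and 187 CPM in cDC2 (5.12). Against these stood Clec4b2, with 25.0, 25.7 and 18.8 CPM in cDC1 and 0.542, 1.64 and 1.91 CPM in cDC2 (-4.11), beside Cd207 and Clec9a. Fc and complement receptors followed, with 11 of 18 higher and 4 lower and a median of 1.60. Cr2, the complement receptor CD21 that is also a B cell marker, had 0.182, 0.375 and 0.271 CPM in cDC1 and 5.83, 7.84 and 7.60 CPM in cDC2 (4.66), beside the B cell sums given above. Cd93, a receptor of phagocytes, was higher at 3.06. Fcrla, an intracellular Fc receptor-like protein (-3.96), Fcgrt, the neonatal Fc receptor (-1.24), and the inhibitory receptor Fcgr2b (-0.72) were lower in cDC2. Fcgrt and Fcgr2b lost their calls without sort 1 (-1.22 and -0.72). In fits without sort 1, 2 and 3, the lectins had 17 and 5, 17 and 7, and 24 and 8 higher and lower members, and the Fc and complement receptors had 6 and 1, 8 and 3, and 13 and 4.

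Paired receptors share ligands or signaling partners and come in activating and inhibitory forms. Of 39 tested, 25 were higher in cDC2 and 4 lower, with a median of 2.25. Sirpb1a, an activating relative of Sirpa, had 13.1, 5.0 and 9.07 CPM in cDC1 and 289.6, 268 and 298 CPM in cDC2 (4.97), and Trem3 had 0.291, 0.208 and 0 CPM in cDC1 and 5.77, 5.21 and 5.21 CPM in cDC2 (4.84). The subsets did not overlap for either. Treml4, a receptor that binds dead cells (-1.98), Cd300c (-1.32) and Treml2 (-1.05) were lower in cDC2. Sirpb1a shares 23.7% of its windows with another gene, and Treml4 lost its call without sort 1 (-1.96). With sort 1, 2 or 3 left out, these counts were 20 and 2, 24 and 3, and 29 and 5. Of 33 with at least 10 counts in every cDC library, 22 were higher and 4 lower (median 2.09). The Ms4a family of membrane proteins had 6 of 10 members higher and 2 lower, with Ms4a4c at 3.48 and Ms4a6d at 3.48. This family had 3 and 0, 4 and 0, and 6 and 2 without sort 1, 2 and 3.

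Receptors that guide migration were divided evenly. Of 53 chemokine, lipid and nucleotide receptors, 13 were higher in cDC2 and 13 lower. Ccr6, the receptor for CCL20, had 1.27, 0.625 and 0.271 CPM in cDC1 and 39.2, 37.7 and 30.9 CPM in cDC2, and Cxcr3, the receptor for CXCL9 and CXCL10, had 57.6, 56.4 and 82.1 CPM in cDC1 and 6.88, 8.96 and 10.6 CPM in cDC2. The subsets did not overlap for either gene (5.53 and -2.89, edgeR adjusted p = 2.46e-05 and 1.12e-05). Gpr183, the oxysterol receptor EBI2 that positions cDC2 in the spleen, was higher in cDC2 with 12.3, 9.96 and 19.6 CPM in cDC1 and 56.4, 52.4 and 68.5 CPM in cDC2 (2.09). Ptger3, a prostaglandin E2 receptor (4.31), Ltb4r1, a leukotriene B4 receptor (3.54), and the fractalkine receptor Cx3cr1 (1.78) were higher too. P2ry14, a receptor for UDP-glucose (-3.67), the adenosine receptor Adora3 (-3.25) and Ccr9 (-2.37) were lower. Ccr7, needed for migration to lymph nodes and into T cell zones, was not called, at 231, 126 and 185 CPM in cDC1 and 169, 118 and 169 CPM in cDC2 (95% interval -0.82 to 0.33), nor was Cxcr4 (95% interval 0.08 to 0.96, edgeR adjusted p = 0.0871). Cxcr4 was called higher by library size alone (0.63) and on the 6 libraries alone with the block (0.51). Ltb4r1 lost its call without sort 1 (3.20), and 20.4% of Adora3 windows occur in another gene. The counts without sort 1, 2 and 3 were 6 and 9, 7 and 10, and 18 and 13. Of 41 with at least 10 counts in every cDC library, 9 were higher and 13 lower.

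Chemokine genes were called in both directions, and most of the called cytokine genes were higher in cDC2. Of 17 tested chemokines, 4 were higher in cDC2 (23.5%) and 2 lower (11.8%). Cxcl9, a ligand of CXCR3 induced by interferon, had 608, 558 and 607 CPM in cDC1 and 55.5, 54.0 and 55.3 CPM in cDC2 (-3.43, edgeR adjusted p = 9.80e-05). Ccl9 (3.69) and Ccl3 (2.75), which attract myeloid cells, were higher in cDC2. Ccl9 lost its call without sort 1 (3.72) and Ccl3 without sort 2 (2.46). Of 38 cytokines and TNF family ligands, 13 were higher and 3 lower. Among the 24 of them with at least 10 counts in every cDC library, 8 were higher and 3 lower. With sort 1, 2 or 3 left out, higher and lower members numbered 1 and 2, 2 and 2, and 4 and 4 for the chemokines and 6 and 2, 5 and 2, and 17 and 8 for the cytokines.

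Among the cytokines, a pair of genes stood on opposite sides. Il12b, the p40 subunit of IL-12 and IL-23, had 45.4, 32.3 and 22.5 CPM in cDC1 and 4.08, 5.46 and 2.76 CPM in cDC2. Il1rn, the natural antagonist of the IL-1 receptor, had 0.546, 0.167 and 1.08 CPM in cDC1 and 27.5, 22.4 and 30.3 CPM in cDC2. Il12b was higher in every cDC1 library (-3.02, edgeR adjusted p = 0.000339) and Il1rn in every cDC2 library (5.58, edgeR adjusted p = 0.000342). Il1b (1.40), Tnfsf8, the CD30 ligand (4.36), and Tnfsf10, which encodes TRAIL (3.07), were higher in cDC2, and Grn, the progranulin gene (-0.90), and Vegfb (-0.64) were lower. Il1b lost its call without sort 1 (1.43), and Vegfb without sort 1 (-0.63) or 2 (-0.64). Il10, Il12a and Il23a held too few counts for a test. Tnf had 16.9, 12.8 and 40.8 CPM in cDC1 and 29.5, 35.3 and 60.8 CPM in cDC2 and was called with the sort as a block (0.93, edgeR adjusted p = 0.00224) and not without it (0.84, edgeR adjusted p = 0.244). Il15, whose protein sustains CD8+ T cells and NK cells, behaved likewise in the other direction, at -1.59 with the block (edgeR adjusted p = 0.0291) and -1.42 without it (edgeR adjusted p = 0.130). Sort 3 held the highest Tnf level of both subsets.

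Receptors for cytokines and growth factors were more often higher in cDC2, with 23 of 61 higher and 10 lower (median 0.54). Il1r2, a decoy receptor that binds IL-1 without signaling, had 0.583, 0.250 and 0.812 CPM in cDC1 and 16.3, 13.5 and 22.2 CPM in cDC2 (5.02, edgeR adjusted p = 5.44e-05). Csf1r, the receptor for macrophage colony-stimulating factor and also a monocyte marker, had 73.6, 41.8 and 76.6 CPM in cDC1 and 401, 329 and 383 CPM in cDC2 (2.54, edgeR adjusted p = 0.00280). The subsets did not overlap for these genes. Tnfrsf13b, or TACI, a receptor for BAFF and APRIL, was higher (2.57), and Acvrl1, a receptor of the TGF-beta superfamily, was lower (-2.14). Flt3, the receptor for the main DC growth factor, was lower in cDC2 by a small margin, with 944, 927 and 836 CPM in cDC1 and 634, 655 and 586 CPM in cDC2 (-0.53, edgeR adjusted p = 0.00144). Without sort 1 the calls of Csf1r (2.59) and Flt3 (-0.51) were lost. Without sorts 1, 2 and 3 in turn, higher and lower members numbered 10 and 2, 16 and 3, and 25 and 14. Of 52 with at least 10 counts in every cDC library, 22 were higher and 10 lower (median 0.38).

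The core MHC class II genes differed little, while some genes that act around them differed by more. H2-Aa and H2-Eb1, which encode class II chains, were not called without the block, with 95% intervals of -0.35 to 0.09 and -0.35 to 0.03, and H2-Ab1 was slightly lower in cDC2 (-0.39). H2-Eb1 was called with the sort as a block (-0.16, edgeR adjusted p = 0.0353), and H2-Aa with the block on the 6 libraries alone (-0.13). Ciita, the master regulator of class II, had an interval of -0.54 to 0.32. Cst3, the cathepsin inhibitor cystatin C, had 14977, 13891 and 14254 CPM in cDC1 and 1709, 1730.0 and 1797 CPM in cDC2 (-3.04), and Ctss, the cathepsin that trims the invariant chain, had 1099.7, 969 and 1150.3 CPM in cDC1 and 1942, 1744 and 1946 CPM in cDC2 (0.81). Cst3 was higher in every cDC1 library and Ctss in every cDC2 library. Of 30 genes of the class II list, 14 were higher and 6 lower, with a median of 0.06. H2-Eb2 (2.77), the cathepsin Ctsd (1.78) and H2-Oa, a chain of the DO modulator (0.64), were higher, and the cathepsin Ctse (-1.41) was lower. The neighbouring genes H2-DMb2 (1.79) and H2-DMb1 (-1.05), which encode beta chains of the peptide exchange factor DM, moved in opposite directions, although 19.6% and 21.2% of their windows occur in another gene. Without sort 1 the calls of H2-Ab1 (-0.45) and H2-Oa (0.62) were lost, the shared windows of Ctsd come to 31.1%, and opposite-strand exons cover 22.8% of H2-Oa. Higher and lower members came to 7 and 4, 12 and 5, and 13 and 7 without sort 1, 2 and 3.

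Genes of MHC class I loading and cross-presentation were more often lower in cDC2. Of 45 tested, 6 were higher and 20 lower, with a median of -0.38. Tap1, one chain of the peptide transporter of the ER, had 687, 662 and 799 CPM in cDC1 and 379, 365 and 486 CPM in cDC2 (-0.80), and its partner Tap2 had 418, 382 and 438 CPM in cDC1 and 228, 215 and 246 CPM in cDC2 (-0.84). Wdfy4, needed for cross-presentation of cell-bound antigen, had 3473, 3989 and 3256 CPM in cDC1 and 1679, 1902 and 1833 CPM in cDC2 (-0.99). The subsets did not overlap for these 3 genes. Rab39 (-1.84), Rab43 (-1.49) and Cd1d1, which presents lipids to NKT cells (-1.67), were lower in cDC2 too. The class I heavy chains H2-K1 and H2-D1 were not called (95% intervals -0.01 to 0.43 and -0.35 to 0.06), nor was B2m (0.42, edgeR adjusted p = 0.204). With the sort as a block, H2-K1 (0.21, edgeR adjusted p = 0.0414) and B2m (0.43, edgeR adjusted p = 6.70e-05) were called higher in cDC2, and on the 6 libraries alone H2-D1 was then called lower (-0.15). Cybb, a subunit of the phagocyte NADPH oxidase (2.38), was a member of the list that was higher in cDC2. Of Rab43 windows, 85.9% occur in another gene, and Tap1 and Rab39 lost their calls without sort 1 (-0.78 and -1.73). With sort 1, 2 or 3 left out, these counts were 4 and 10, 5 and 14, and 7 and 24.

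Genes of the proteasome and of the ER secretory pathway that were called were nearly all lower in cDC2. Of 38 proteasome subunits, 0 were higher and 14 lower, among them the immunoproteasome subunits Psmb8 (-0.79) and Psmb9 (-0.98) and the standard subunit Psmb7 (-0.77). By library size alone, 9 were lower. Of 60 genes of the ER secretory machinery and the unfolded protein response, 33 were lower and 1 higher, with a median of -0.63. Creld2, an ER stress-induced chaperone, had 102, 104 and 116 CPM in cDC1 and 42.4, 42.1 and 31.9 CPM in cDC2 (-1.47, edgeR adjusted p = 4.47e-05), and the COPII coat gene Sec24d had 47.8, 53.6 and 62.4 CPM in cDC1 and 13.2, 13.4 and 18.9 CPM in cDC2 (-1.85, edgeR adjusted p = 4.33e-05). Neither overlapped between the subsets. Derl3, a factor of ER-associated degradation, was lower (-2.18), and the stress-induced factor Ddit3, or CHOP, was the member that was higher (0.85). The call of Ddit3 was lost without any one of cDC1 replicates 2 and 3, cDC2 replicates 1 and 2 and pDC replicates 1 and 2, for example 0.65 without cDC1 replicate 3. With the sort as a block the paired fit called 0 higher and 22 lower for the proteasome and 4 higher and 49 lower for the ER list. Without sort 1, 2 and 3, respectively, the counts were 0 and 1, 0 and 3, and 0 and 18 for the proteasome and 0 and 13, 0 and 18, and 2 and 46 for the ER list. Derl3 lost its call without sort 1 (-2.24) or 2 (-2.37), as did Psmb7 (-0.84) and Psmb9 (-1.01) without sort 1.

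**Figure D4:**
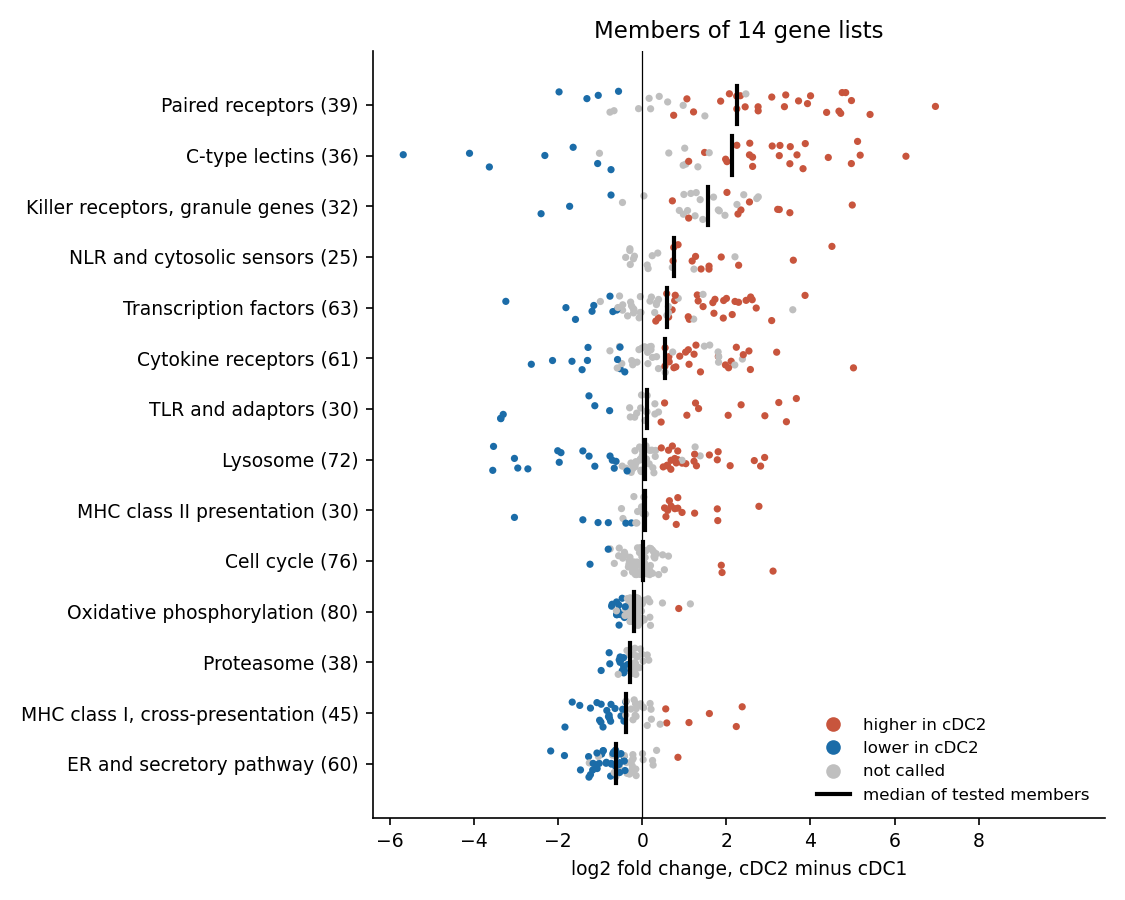
Log2 fold change of cDC2 over cDC1 for each tested member of 14 gene lists, one row per list (tested members in brackets), with called members coloured by direction, members that were not called in grey and a black tick at the median. The ER secretory and MHC class I rows lie mostly below 0, with medians of -0.63 and -0.38, and the paired receptors and C-type lectins mostly above, with medians of 2.25 and 2.13.

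Costimulators and checkpoint ligands split by member. Of 38 tested, 12 were higher in cDC2 and 10 lower. Cd86, a ligand of CD28, had 481, 497 and 501 CPM in cDC1 and 119.8, 122 and 122 CPM in cDC2, and Cd274, which encodes PD-L1, had 31.8, 23.8 and 35.1 CPM in cDC1 and 139, 132 and 143 CPM in cDC2. Cd86 was higher in every cDC1 library (-2.02, edgeR adjusted p = 7.59e-06) and Cd274 in every cDC2 library (2.19, edgeR adjusted p = 7.47e-06). Pdcd1lg2, which encodes PD-L2 (2.98), and Icosl, the ICOS ligand (1.21), were higher in cDC2, and Sema4a, which costimulates T cells (-2.06), was lower. Cd80 and Cd40 were not called (95% intervals -0.28 to 0.55 and -0.07 to 0.75), although Cd40 was called with the sort as a block (0.34, edgeR adjusted p = 0.0415). Genes known to rise on DC maturation were higher for 17 of 45 and lower for 8 (median 0.49), with the fatty acid binding protein Fabp5 (3.06) and the protease inhibitor Cst7 (2.66) among the rises and Serpinb6b (-2.83) and Il12b among the falls. With the block the paired fit called 26 higher and 8 lower of the maturation genes. In fits without sort 1, 2 and 3, the costimulators had 8 and 6, 7 and 8, and 11 and 10 higher and lower members, and the maturation genes had 12 and 7, 12 and 6, and 19 and 8.

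Uptake receptors and lysosomal genes were reshuffled between the subsets. Of 40 genes for uptake of dying cells and for scavenging, 15 were higher in cDC2 and 7 lower. Msr1, a class A scavenger receptor, had 0.837, 0.333 and 0.338 CPM in cDC1 and 7.68, 6.93 and 8.29 CPM in cDC2 (3.87), and Cd36, a class B scavenger receptor, had 518, 534 and 563 CPM in cDC1 and 29.5, 43.0 and 32.9 CPM in cDC2 (-3.94). Lrp1, a receptor of many ligands, was higher (2.58), and Havcr2, or TIM-3, a phosphatidylserine receptor, was lower (-1.26). Of 72 lysosomal genes, 24 were higher and 16 lower, with a median of 0.06 that changed sign in 2 alternatives. Naaa, an acid amidase of lipid mediators, had 3013, 3074 and 3879 CPM in cDC1 and 217, 313 and 327 CPM in cDC2 (-3.54), and Ppt1, which removes palmitate from proteins, had 4886, 4936 and 5235 CPM in cDC1 and 355, 489.6 and 435 CPM in cDC2 (-3.56). These libraries did not overlap, and neither did those of Acp5, an acid phosphatase that was higher in cDC2 with 35.7, 30.8 and 44.1 CPM in cDC1 and 278, 227 and 325 CPM in cDC2 (2.91). Lyz2, the lysozyme gene of macrophages and monocytes, had 359, 255 and 373 CPM in cDC1 and 1674, 1102 and 1421 CPM in cDC2 (2.09), beside the monocyte sums given above. Its call was lost without cDC1 replicate 2 (1.93). With sort 1, 2 or 3 left out, higher and lower members numbered 8 and 7, 12 and 8, and 15 and 6 for the uptake genes and 13 and 12, 19 and 15, and 26 and 21 for the lysosomal genes.

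Adhesion and Notch genes differed in both directions. Of 58 integrins, tetraspanins and adhesion molecules, 19 were higher in cDC2 and 16 lower. Beside Itgam and Itgae, the cadherin Cdh17 had 2.33, 2.71 and 1.90 CPM in cDC1 and 29.8, 29.7 and 34.7 CPM in cDC2 (3.75) and the integrin chain Itga8 had 46.9, 57.1 and 42.4 CPM in cDC1 and 4.36, 7.07 and 3.83 CPM in cDC2 (-3.25). Plxnd1, a semaphorin receptor, was higher in cDC2 (3.02). For the Notch pathway, 8 of 32 were higher and 8 lower. Dtx1 had 16.8, 8.21 and 9.54 CPM in cDC1 and 491, 478 and 446 CPM in cDC2 (5.35, edgeR adjusted p = 7.08e-05), and Lfng, which modifies Notch receptors with sugar, was higher (1.09). The receptor Notch4 had 146, 161 and 107 CPM in cDC1 and 10.1, 17.4 and 6.00 CPM in cDC2 (-3.62, edgeR adjusted p = 0.000808) and the ligand Jag2 had 13.5, 16 and 19.6 CPM in cDC1 and 0.796, 1.85 and 1.33 CPM in cDC2 (-3.62, edgeR adjusted p = 0.000265). Dtx1 was higher in every cDC2 library, and Notch4 and Jag2 in every cDC1 library. Rbpj, the DNA-binding partner of Notch, was slightly lower in cDC2 (-0.77), a call lost without cDC2 replicate 1 (-0.65), and 18.0% of its windows occur in another gene. Without sort 1, 2 and 3, respectively, the counts were 12 and 7, 16 and 9, and 22 and 15 for adhesion and 3 and 4, 4 and 4, and 11 and 12 for the Notch list.

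Metabolic genes changed member by member, with little shift of the groups. In glycolysis 8 of 26 genes were higher and 11 lower. The glucose transporter Slc2a3 had 28.7, 22.4 and 28.3 CPM in cDC1 and 166, 171 and 183 CPM in cDC2 (2.71), and the hexokinase Hk3 had 198, 194 and 242 CPM in cDC1 and 14.3, 13.4 and 23.7 CPM in cDC2 (-3.63). Ldhb, a lactate dehydrogenase chain, was higher (2.34), and Aldoc (-1.84) and Pfkp (-1.72) were lower. In lipid handling 13 of 50 were higher and 11 lower, with the phospholipid transfer protein Pltp at 4.28, Pla2g7, which degrades platelet-activating factor, at 3.27, and the desaturase Scd1 at -2.94. The call of Scd1 was lost without sort 1 (-3.11) or 2 (-3.33). Cholesterol synthesis had 4 of 26 higher and 5 lower. Respiratory chain and ATP synthase subunits had 1 of 80 higher and 12 lower, with a median of -0.21, and 3 higher and 26 lower with the sort as a block. Mitochondrial ribosomal proteins had 0 of 76 higher and 12 lower. By library size alone, the last 2 lists had medians of -0.09 and -0.07 in place of -0.21 and -0.18, with 8 and 4 members lower. Dropping sort 1, 2 and 3 gave higher and lower counts of 4 and 4, 6 and 5, and 9 and 11 for glycolysis, 7 and 5, 10 and 9, and 17 and 15 for lipid handling and 0 and 2, 0 and 3, and 2 and 8 for cholesterol synthesis. The same fits gave 1 and 1, 1 and 4, and 1 and 16 for the respiratory chain and 0 and 2, 0 and 2, and 1 and 18 for mitochondrial ribosomes.

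Few genes of the cell cycle and of cytosolic ribosomes were called. Of 76 genes of the cell cycle and DNA replication, 3 were higher and 2 lower, well under the share over all genes, with a median of 0.01 (7 higher and 5 lower with the block). Those higher were the cyclins Ccnd2, with 10.9, 6.59 and 8.94 CPM in cDC1 and 74.4, 72.7 and 80.9 CPM in cDC2 (3.11), and Ccnd1, with 354, 323 and 392 CPM in cDC1 and 1329, 1236 and 1368 CPM in cDC2 (1.88), and the factor E2f2 (1.90). Opposite-strand exons cover 23.4% of Ccnd1. Cytosolic ribosomal proteins had 2 of 85 higher and 7 lower. The immediate-early, heat-shock and dissociation-response list turned on the pairing. Without the block 3 of 45 were called higher and 2 lower, and with the block 19 higher and 6 lower. The counts without sort 1, 2 and 3 were 2 and 0, 2 and 1, and 17 and 6. Nr4a1, an orphan nuclear receptor induced within minutes, was higher in cDC2 without the block at 44.9, 45.9 and 75.5 CPM in cDC1 and 129, 140.4 and 147 CPM in cDC2 (1.33), and Egr3 was lower (-2.28), a call lost without sort 1 (-2.49) or 2 (-2.16). BCL-2 family members and caspases had 4 of 33 higher and 6 lower, and 7 higher and 3 lower by library size alone, with Casp6 at -1.64, Bid at -0.94 and Pmaip1, which encodes NOXA, at 1.03. Fits that dropped sort 1, 2 and 3 gave 1 and 3, 1 and 3, and 5 and 11 for this list, 3 and 1, 4 and 2, and 7 and 6 for the cell cycle and 0 and 0, 0 and 1, and 3 and 7 for ribosomal proteins.

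Killer lectin-like receptors and cytotoxic genes were higher in cDC2 for 10 of 32 and lower for 3, with a median of 1.57. Klrb1f had 2.40, 1.5 and 2.44 CPM in cDC1 and 22.9, 22.4 and 26.7 CPM in cDC2 (3.51), and Klri2 had 7.90, 6.67 and 9.61 CPM in cDC1 and 63.0, 63.6 and 104 CPM in cDC2 (3.26). Both are receptors known from NK cells, and their cDC2 libraries lay above every cDC1 library. Serpinb9, an inhibitor of granzyme B, was lower in cDC2 with 178, 135 and 156 CPM in cDC1 and 29.1, 25.5 and 33.8 CPM in cDC2 (-2.41). The cytotoxic genes Gzma and Prf1 were not called without the block, whereas the NK cell marker Ncr1 was called higher in cDC2. Gzma stood at 6.30, 4.09 and 15.0 CPM in cDC1 and 10.04, 10.6 and 40.6 CPM in cDC2. Prf1 stood at 1.57, 0.917 and 3.05 CPM in cDC1 and 2.64, 2.48 and 4.94 CPM in cDC2. With the sort as a block the paired fit called 18 higher and 4 lower of this list, Gzma among them (1.18, edgeR adjusted p = 0.00245), and Prf1 was called with the block on the 6 libraries alone (0.94). The NK cell markers summed to 10.3 to 31.5 CPM in cDC1 and 24.7 to 97.8 CPM in cDC2, and their part in the list's change was not tested. Klri2 and the NK sum were both highest in cDC2 of sort 3. In cDC2 of sorts 1 and 2, Klri2 stood at 63.0 and 63.6 CPM and the NK sum at 24.7 and 41.6 CPM. Without sorts 1, 2 and 3 in turn, higher and lower members numbered 7 and 1, 5 and 2, and 15 and 4.

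Among transporters and other families, Slc7a11, the cystine-glutamate exchanger, had 0.692, 0.542 and 0.948 CPM in cDC1 and 10.4, 7.80 and 10.4 CPM in cDC2 (3.72, edgeR adjusted p = 3.39e-05). Slc11a1, or NRAMP1, which pumps iron and manganese out of the phagosome, had 136, 134 and 197 CPM in cDC1 and 25.0, 21 and 31.3 CPM in cDC2 (-2.60, edgeR adjusted p = 0.00164). The former was higher in every cDC2 library and the latter in every cDC1 library, although Slc11a1 lost its call without sort 1 (-2.67). The histidine and peptide transporters of the lysosome Slc15a3 (1.65) and Slc15a4 (1.61) were both higher in cDC2. Opposite-strand exons cover 28.1% of Slc15a3. Of 46 Rab GTPases, 6 were higher and 13 lower, with Rab37 at 2.44 and Rab13 at -3.32. Annexins and S100 proteins had 9 of 19 higher and 4 lower, with S100a6 at 2.60 and S100a10 at 2.16. Solute carriers as a family had 46 of 195 higher and 29 lower, and the sign of their median changed with the scaling (21 and 14, 30 and 18, and 52 and 51 without sort 1, 2 and 3). In fits without sort 1, 2 and 3, the Rab genes had 4 and 4, 4 and 7, and 7 and 15 higher and lower members, and the annexins and S100 proteins had 3 and 1, 4 and 2, and 8 and 3.

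Likeness was judged by the interval and not by a missed threshold. The 95% interval of the log2 fold change lay within -0.5 to 0.5 for 2348 of the genes tested (17.0%) and within -1 to 1 for 7132 (51.6%). With the sort as a block, 3718 genes (26.9%) lay within the narrower range. Protein-coding genes made up 3213 of the called genes out of 12204 tested, and other kinds of gene 157 out of 1615.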

How the data were processed

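Polyadenylated RNA of sorted DC subsets was sequenced as stranded libraries with single 75-base reads. The authors deposited raw counts of reads per gene, not normalized. The submitters' processing notes name STAR, SAMtools, MultiQC, featureCounts and the build mm10. Versions, annotation, strand setting and the handling of reads that fit several genes are not given in the sources used here. The methods name Degust without its statistical method. Unstranded counting would merge a gene with its antisense partner.

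Under R 4.3.3, edgeR 4.0.16 was used. Its filterByExpr (minimum count 10) chose the genes, and TMM-scaled counts were fitted over all 9 libraries with the subset as the only term, and cDC2 was tested against cDC1 by the quasi-likelihood test with Benjamini-Hochberg adjustment over all genes tested. Intervals are at 95% and come from the fit. Within a subset, replicates differed beyond counting noise (chi-square per degree of freedom of 10.4 to 61.0 over genes), and each counted as 1 sample. The floor of 3 counts covers counting error only. All columns of per-sample values were used.

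Libraries of the same number share a date code in the labels, which is the source of the pairing. Their deviations from the subset means correlated across genes at 0.37, 0.54 and 0.47 for numbers 1, 2 and 3, against -0.47 to 0.17 between different numbers, on log2 CPM plus a pseudocount of 1. A fit with the number as a block was an alternative.

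Named genes were the markers and set anchors, up to 3 called rises and 3 falls per list with at least 5 CPM in the higher subset, the 15 largest rises and falls with a mean count of at least 100, and the 12 largest rises and falls in CPM, interferon-stimulated genes and names of Gm or Rik type set aside from the last 2 kinds. The genes, lists and comparison were chosen with earlier results of these data known. Positions, overlaps and shared 75-base windows come from GENCODE M21 on GRCm38, which is mm10 and holds 37693 of the genes listed (96.2%). Promoters come from RefSeq on GRCm38.p6.

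On simulated counts for this comparison (13819 genes, 200 changed) edgeR recovered 37 of 100 genes changed 2-fold and 70 of 100 changed 4-fold, with 3.60% of calls false. The counts were drawn without a sort effect, so they could not show how the block performs on paired libraries. Far fewer genes were changed than the 3370 called here, so these rates need not hold for the data. False calls made up 3.88% with the block. On the 13551 genes (194 changed) whose simulated counts passed the filter, they made up 2.73% with limma-voom (limma 3.58.1) and 27.4% with DESeq2 1.42.0. Other alternatives were the 6 libraries alone, library size or upper quartile scaling, other filters and thresholds, and each library or sort left out. Plots were made in Python 3.11.15 using matplotlib 3.10.9.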

Additional observations from a re-analysis of the deposited data

How the results depend on the processing

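The count of called genes moved more with the libraries and the threshold than with the tool. It was 4011 with DESeq2, 3697 with limma-voom, 3491 by library size alone and 3333 with upper quartile factors, against 3370. It was 2103 at an adjusted p of 0.01, 1812 where the log2 fold change also had to reach 1 in size, and 3774 on the 6 libraries alone. Leaving out single libraries or a whole sort gave between 1207 (without sort 1) and 5356 (without sort 3), and each such fit has fewer samples. The paired fit, with the sort as a block, called 4916 genes, 3352 of them among the 3370, and 5645 on the 6 libraries alone. Of the 308 called genes that the naming rule covers, the block lost 0 calls, library size alone 6, DESeq2 1 and limma-voom 2, while leaving out sort 1, 2 or 3 lost 92, 54 and 6. No called gene under the rule changed direction in any alternative that tested it, and 192 were called in every alternative that tested them. Some of these, Cd101 and Mmp9 among them, were tested in 22 of the 23 alternatives. The share of called genes that were higher in cDC2, 52.2%, was 63.1% by library size alone, 49.0% without cDC2 replicate 3 and 49.2% without sort 3, and left-out samples gave 49.0% to 58.2% in all. The cause of these shifts was not tested. The 2348 genes with an interval within -0.5 to 0.5 became 3718 with the block and 7132 within -1 to 1. The medians of 44 of 57 lists kept their sign in every alternative. At 3 counts per library, levels under about 0.0956 to 0.203 CPM cannot be told from 0.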

Other observations

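Genes that changed together often lay side by side. Among protein-coding genes tested, the next gene along the chromosome was also higher for 390 of 1675 genes higher in cDC2 (23.3%), against 13.8% of all protein-coding genes tested, and also lower for 319 of 1521 lower genes (21%), against 12.6%. Neighbouring genes in a family can share reads, and the part of that was not tested. The runs named here were chosen after their values were seen. On chromosome 19 from 11321039 to 11604849, 6 Ms4a genes (Ms4a7, Ms4a4c, Ms4a4b, Ms4a6c, Ms4a6b and Ms4a6d) were higher in cDC2, with log2 fold changes from 1.93 to 3.48. A run of 5 genes, Clec4b1 and 4 of Clec4a type, on chromosome 6 from 122921848 to 123143999 was higher by 3.27 to 5.18, and 5 genes of the Sirpb1 cluster on chromosome 3 from 15296551 to 16006437 were higher by 4.11 to 4.98. The chromosome 17 run from 34153072 to 34216321 held H2-DMb1, Psmb9, Tap1, Psmb8 and Tap2, all lower in cDC2, with log2 sizes of 0.79 to 1.05.

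Single members of several families, some tied to nerve, muscle and vessel biology, also differed between the subsets. Of 22 semaphorins, plexins and neuropilins, which guide axons and vessels, 9 were higher in cDC2 and 4 lower. Sema4b was higher (2.41), and Sema4c (-1.74) and Sema4f (-3.10) were lower. Of 56 potassium, sodium, calcium and TRP channels, 10 were higher (17.9%) and 9 lower (16.1%), against 12.7% and 11.7% of all genes tested. The sodium channel Scn3a had 1.35, 1.5 and 0.609 CPM in cDC1 and 20.0, 30.9 and 16.2 CPM in cDC2 (4.23), and the calcium channel subunit Cacnb2 had 7.28, 9.63 and 7.11 CPM in cDC1 and 0.988, 1.36 and 0.691 CPM in cDC2 (-2.96). Neither overlapped between the subsets. Cadherins had 6 of 14 higher and 0 lower. Of 17 serpins, 2 were higher and 6 lower (1 and 5, 1 and 5, and 6 and 7 without sort 1, 2 and 3). The lower ones included Serpinf1, an inhibitor of vessel growth, with 73.3, 81.1 and 122 CPM in cDC1 and 5.67, 9.34 and 8.66 CPM in cDC2 (-3.55). Dual-specificity phosphatases, which turn off MAP kinases, had 4 of 16 higher and 0 lower, with Dusp7 at 2.36. Dropping sort 1, 2 and 3 left higher and lower counts of 4 and 4, 3 and 5, and 16 and 11 for ion channels, 3 and 0, 3 and 0, and 6 and 0 for cadherins and 1 and 0, 1 and 0, and 6 and 1 for these phosphatases.

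Genes with provisional names included few called genes, with 117 of 1801 Gm or Rik names higher and 110 lower (43 and 21, 53 and 30, and 202 and 230 without sort 1, 2 and 3). 1810011H11Rik, now named Tmem273, had 0.255, 0.208 and 0.271 CPM in cDC1 and 9.49, 10.3 and 13.7 CPM in cDC2 (5.49, edgeR adjusted p = 0.000544). Gm11837 had 17.2, 17.9 and 23.8 CPM in cDC1 and 0.350, 0.315 and 0.850 CPM in cDC2 (-5.34, edgeR adjusted p = 6.68e-05), with 40.5% of its exon bases under an opposite-strand gene.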
